A study of Homo sapiens with 8 samples.

Results

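OGT and MGEA5 (OGA) are the pair of human genes that write and erase O-GlcNAc, and their RNA was followed here in U2OS cells, a human osteosarcoma line, after depletion of the splicing factor CHERP. Both genes were taken by symbol from the splicing tables, which hold 12067 genes in all, and these 2 genes had 23 and 25 splicing events in whole cells, of which 9 and 8 were also found in the cytoplasm. OGT (ENSG00000147162.9) lies on chromosome X from 70752937 to 70795742 on the plus strand, and MGEA5 (ENSG00000198408.9) on chromosome 10 from 103544200 to 103578222 on the minus strand (GRCh37, which is hg19). The cells received 20 nM of siRNA against EGFP, a gene they do not carry, or 20 nM of CHERP siRNA #2, and were harvested after 48 h. Poly(A)+ RNA of whole cells and of the cytoplasm was sequenced, with 2 biological replicates for each of the 4 groups and 8 libraries in all. A single siRNA against CHERP was used, so that an effect of CHERP and an off-target effect of this siRNA cannot be told apart, and in such bulk samples fewer cells and less RNA per cell cannot be told apart either.

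OGT is the only enzyme known to attach N-acetylglucosamine to serine and threonine residues of nuclear and cytoplasmic proteins, with UDP-GlcNAc as the donor, and OGA removes it again. Cells keep the modification within narrow limits, and OGT RNA is known for a detained intron, that is, an intron that stays in polyadenylated RNA held in the nucleus and whose removal responds to the O-GlcNAc level. UDP-GlcNAc comes from the hexosamine pathway, where GFPT1 and GFPT2 catalyze the first step, GNPNAT1 acetylates glucosamine 6-phosphate, PGM3 shifts the phosphate and UAP1 makes the nucleotide sugar.

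The splicing events that carried the results were the retention of OGT intron 4 and the skipping of OGT exon 7, counted along the 22 exons of the transcript ENST00000373719. The splice sites at issue are shown first, since they define these events. They were read from GRCh37 on the plus strand, with the 2 terminal bases of the intron in capitals, 3 exon bases and 6 intron bases at each 5′ splice site, and 20 intron bases and 3 exon bases at each 3′ splice site.
intron 4, 5′ splice site: aagGTaggt
intron 4, 3′ splice site: tttcattaacccctcctaAGgca
intron 6, 5′ splice site: cagGTgaga
intron 6, 3′ splice site: gtgtgtgtgtttatttacAGagc
intron 7, 5′ splice site: agtGTaagg
intron 7, 3′ splice site: gactttgttttgttttctAGgtt
For a score, the frequency of each base at its position was taken over 95802 introns beside cassette exons, divided by 0.25, and the log2 values were added up. Intron 4, from 70764486 to 70767756 and 3271 bases long, had a 5′ splice site at the 82.9 percentile of these introns, with a score of 10.4 against a median of 8.29. Its 3′ splice site scored 5.50 against a median of 9.85, at the 13.7 percentile. The intron thus joined a strong start with a low-scoring end, and with 3271 bases it lay near the median length of 2536. Exon 7, from 70775040 to 70775235, was entered from intron 6, whose 3′ splice site scored 9.09 and lay at the 42.0 percentile. It was left through the 5′ splice site of intron 7, which scored 5.27 and lay at the 12.9 percentile. Introns 6 and 7 were short, with 597 and 568 bases, at the 18.99 and 18.3 percentiles of length. These percentiles are descriptions of single sites.

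Both events interrupt the reading frame of OGT as annotated. In RNA that keeps intron 4, translation from the frame of exon 4 meets a stop codon whose first base is base 10 of the intron, at 70764495 on chromosome X. The stop codon is in capitals in the stretch around it.
exon 4 into intron 4: aaggtaggtgttTGAtagaacacattt
The length of exon 7 leaves a remainder of 1 after division by 3. When exon 6 is joined to exon 8, the shifted frame meets a stop codon whose first base is base 65 of exon 8, at 70775868.
exon 8 in the shifted frame: atgcagactctcTGAataacctagcca
Of the 21 OGT transcripts in GENCODE 44, 2 have an exon that runs through intron 4, and the annotation types them as retained intron and as subject to nonsense-mediated decay. A further transcript starts inside intron 4, at 70766676, and 3 transcripts join exon 6 to exon 8.

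CHERP itself was covered by 77 and 103 reads on its events in the whole-cell EGFP siRNA libraries and by 3 and 10 in the CHERP siRNA libraries. In the cytoplasm the reads were 21 and 31 with EGFP siRNA, against 3 and 4 with CHERP siRNA. Summed over the 5 event types, the whole-cell libraries held between 29409956 and 35664568 reads and the cytoplasmic ones between 5370756 and 6580099, and a read on several events counts at each. Of the mesenchymal markers, VIM had 57402 to 80880 reads in whole cells and FN1 11893 to 16859, CDH2 had 87 to 176, and RUNX2 had 16 and 18 with EGFP siRNA compared with 0 and 3 with CHERP siRNA. COL1A1, COL1A2 and SPARC have no SE, A5SS or A3SS event in these tables, nor have PTPRC, CD3E, EPCAM, KRT5 and PECAM1, so that lymphoid and endothelial cells could not be checked and epithelial cells only through CDH1. CDH1 had 1 read in each whole-cell EGFP siRNA library and 22 and 15 in the CHERP siRNA libraries. Whether the changes in RUNX2 and CDH1 reads have a part in the results below was not tested.

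In whole cells, OGT RNA held more of intron 4 after CHERP depletion. For the retained intron, the only RI event of either gene, 1171 and 1835 reads were counted in the EGFP siRNA libraries and 3825 and 4258 in the CHERP siRNA libraries. On the spliced junction between exons 4 and 5 the counts were 59 and 48 against 56 and 52. Intron reads were thus higher in every CHERP siRNA library, whereas the junction reads overlapped between the groups. The inclusion level, in which reads of either form are first divided by its effective length and the inclusion form is then given as a share of both, was 0.456 and 0.617 with EGFP siRNA, against 0.742 and 0.775 with CHERP siRNA. The mean rose from 0.536 ± 0.114 to 0.759 ± 0.0234 (SD, n = 2), and the log2 odds ratio was 1.41 (standard error 0.42, adjusted p = 0.0493 by the quasi-binomial test with Benjamini-Hochberg adjustment over 3717 RI events). Of all RI events in whole cells, 1.75% passed that test, and 0.619% (23 events) passed with a rise. The test used a dispersion of 4.37 taken from the trend over all RI events, whereas the libraries of intron 4 alone gave 6.10. The p-value thus does not reflect the wider spread at intron 4 itself. The call was close to the threshold of 0.05 and did not hold with any library left out (adjusted p between 0.51 and 1), when the floor on the dispersion was set after the moderation (0.404) or with limma on the log2 odds (0.377). With that floor set after the moderation, 0 of the 3717 RI events passed, so this loss was not particular to OGT. The difference in level stayed above 0 with each library left out, between 0.142 and 0.303.

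**Figure D1:**
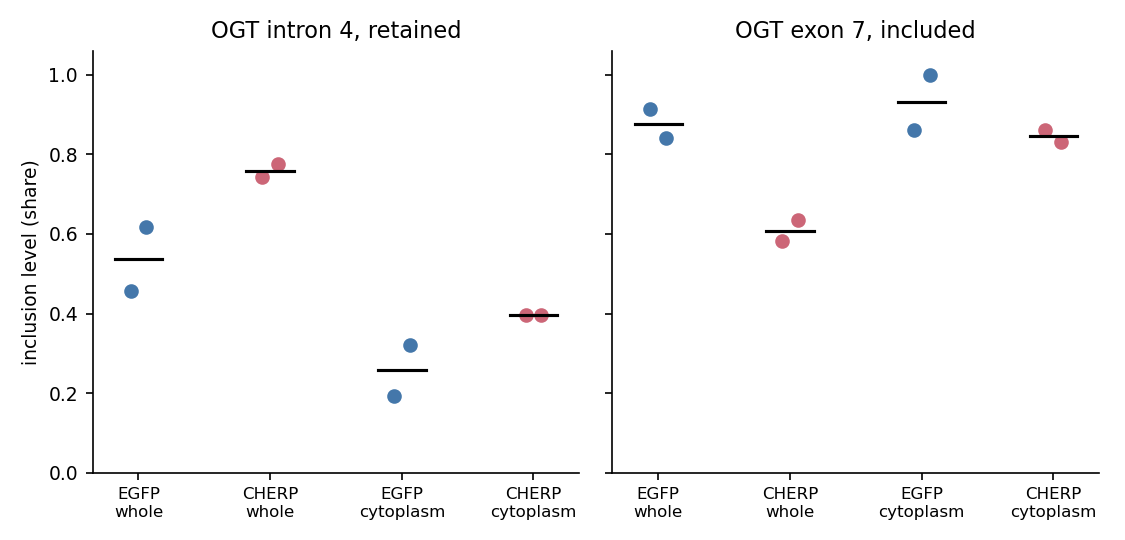
Inclusion level of OGT intron 4 (left) and OGT exon 7 (right) in each library, on a scale from 0 to 1, by siRNA and fraction. Points are libraries and bars are means of 2. In whole cells the intron rose from a mean of 0.536 to 0.759 and the exon fell from 0.877 to 0.608.

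To see which form moved, the reads were scaled as the gene abundance and divided by the length of each form. Intron 4 held 37.2 and 51.7 scaled reads per 100 positions with EGFP siRNA compared with 107 and 125 with CHERP siRNA in whole cells, 2.61 times as many. Over the spliced junction the EGFP siRNA values were 44.4 and 32.1 and the CHERP siRNA values 37.05 and 36.3, a ratio of 0.959. Of the intron and the spliced junction, it was thus the intron whose reads differed between the siRNAs in whole cells. Reads inside the intron do not show that exon 4 is joined to it. RNA of the annotated transcript that starts at 70766676 would add to them, and its share was not tested.

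In the cytoplasm no rise of intron 4 was detected. It had 187 and 173 reads with EGFP siRNA, against 150 and 151 with CHERP siRNA, and the spliced junction had 17 and 8 reads against 5 and 5. Of the 1696 RI events there, 0.295% passed. The inclusion level was 0.194 and 0.321 with EGFP siRNA compared with 0.396 and 0.397 with CHERP siRNA, and the groups did not overlap. The log2 odds ratio was 1.02 (standard error 0.82, adjusted p = 0.894 over 1696 RI events by the quasi-binomial test), so that at 5 to 17 junction reads a change of the size seen in whole cells could not be detected. Per 100 positions, the intron held 5.72 and 5.18 scaled reads with EGFP siRNA, against 4.06 and 4.88 with CHERP siRNA, and the junction 23.8 and 10.96 against 6.20 and 7.41. Both forms were thus lower in each cytoplasmic CHERP siRNA library than in either EGFP siRNA library.

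**Figure D2:**
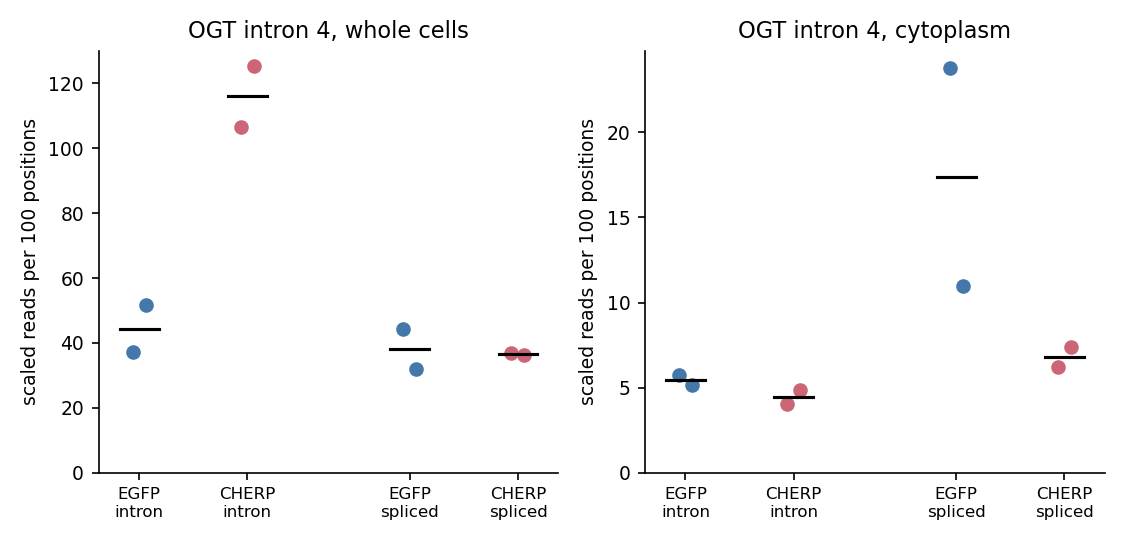
Reads per 100 positions, scaled by median ratios within each fraction, over OGT intron 4 and over the spliced junction of exons 4 and 5, in whole cells (left) and the cytoplasm (right), on separate linear axes from 0. Points are libraries and bars are means of 2. In whole cells the intron rose from 37.2 and 51.7 to 107 and 125, and the junction stayed between 32.1 and 44.4.

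The intron was less frequent in the cytoplasm than in whole cells. With EGFP siRNA the mean level was 0.536 in whole cells and 0.257 in the cytoplasm (log2 odds ratio -1.93, adjusted p = 0.0091 by the quasi-binomial test over 1599 RI events in both fractions). A difference between the fractions passed the test for 27.9% of these RI events, and 6.53% of the events of all types. The OGT call was lost without the second whole-cell EGFP siRNA library (adjusted p = 0.068) and without the first cytoplasmic one (0.472). With CHERP siRNA the levels were 0.759 and 0.397 (log2 odds ratio -2.33, adjusted p = 0.0554), and 31.3% of the RI events and 7.17% of all events passed. The cytoplasmic libraries had shorter effective reads than the whole-cell libraries, 73 against 144 positions on the spliced form, and this cannot be told apart from the fraction. No event of OGT or MGEA5 passed the test for an interaction of siRNA and fraction among the 17 events found in both fractions, with 0 at an unadjusted p under 0.05 and a lowest adjusted p of 0.946, and 0.0208% of all events passed it. limma on the log2 odds gave 0 as well.

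Exon 7 of OGT, which encodes part of the tetratricopeptide repeats that bind substrates, was skipped more often after CHERP depletion in whole cells. Inclusion reads numbered 371 and 423 in the EGFP siRNA libraries and 491 and 559 in the CHERP siRNA libraries. Skipping reads, on the junction of exons 6 and 8, were 15 and 34 against 150 and 136. Both forms were higher with CHERP siRNA, and the skipping form by far more. The inclusion level was 0.913 and 0.840 with EGFP siRNA compared with 0.581 and 0.635 with CHERP siRNA, without overlap. The mean fell from 0.877 ± 0.0512 to 0.608 ± 0.0383 (SD, n = 2), with a log2 odds ratio of -2.13 (standard error 0.36, adjusted p = 2.13e-08 by the quasi-binomial test over 63977 SE events). The test used a dispersion of 2.43 taken from the trend over all SE events, whereas the libraries of exon 7 alone gave 3.87. The p-value thus does not reflect the wider spread at exon 7 itself. Among all SE events in whole cells, 1.05% passed, and 0.519% (332 events) with a fall. The call held without the second EGFP siRNA library or the second CHERP siRNA library, with adjusted p of 0.0425 and 0.0163, but not without the first EGFP siRNA library (0.327) or the first CHERP siRNA library (0.188). It was also lost with limma on the log2 odds (0.552) and with the floor set after the moderation (0.445). Under that floor 0 of the 63977 SE events passed, so this loss was not particular to exon 7.

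In the cytoplasm exon 7 had 68 and 52 inclusion reads with EGFP siRNA, against 46 and 36 with CHERP siRNA. Skipping reads were 3 and 0 against 2 and 2, so the cytoplasmic estimate rested on 7 skipping reads in all. The inclusion level was 0.860 and 1 with EGFP siRNA compared with 0.862 and 0.830 with CHERP siRNA, and the groups overlapped. The log2 odds ratio was -0.91 (standard error 1.47, adjusted p = 0.790 by the quasi-binomial test), a standard error too wide to detect a change of the size seen in whole cells. The interaction with the fraction had an adjusted p of 0.946.

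Apart from these 2 events, none of the 23 whole-cell events of OGT passed, and none of its 9 cytoplasmic events did. In the cytoplasm, 0.209% of the events of all types and 0.213% of the SE events passed. The other whole-cell SE events of OGT were nearly always included, and 16 of its 17 SE events had a mean level of at least 0.9 with EGFP siRNA. Several OGT events name a long exon that runs from exon 4 through intron 4 to exon 5, and they count the same intron reads as the RI event. This exon in place of exon 3 (an MXE event) had the lowest adjusted p among them, 0.137 by the quasi-binomial test, with an inclusion level of exon 3 of 0.373 with EGFP siRNA and 0.233 with CHERP siRNA.

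MGEA5 had no RI event and no A5SS event in these tables, and 0 of its 25 whole-cell and 0 of its 8 cytoplasmic events passed the quasi-binomial test, with 1 event in each fraction at an unadjusted p under 0.05. Over all genes, 0.985% of the events passed in whole cells and 0.209% in the cytoplasm. With shares this low, a count of 0 among so few events says little about MGEA5. With limma on the log2 odds and with the floor set after the moderation, 0 events of either gene passed in each fraction. That floor let 0 SE and 0 RI events of any gene pass in either fraction. Of its 19 whole-cell SE events, 17 had a mean inclusion level of at least 0.9 with EGFP siRNA. The lowest adjusted p, 0.474, belonged to exon 10 (103557737 to 103557911), which is named here after its values were seen. Exon 10 had 272 and 318 inclusion reads and 5 and 7 skipping reads with EGFP siRNA, and 221 and 249 inclusion reads and 0 skipping reads in each library with CHERP siRNA. The exon of 59 bases from 103553443 to 103553501, absent from the reference transcript ENST00000361464 and likewise chosen after its values were seen, was the least included, at 0.269 with EGFP siRNA and 0.469 with CHERP siRNA (adjusted p = 0.761).

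The abundance of OGT rose in whole cells and fell in the cytoplasm. Abundance is here found by dividing the reads of each form of the SE, A5SS and A3SS events of a gene by its effective length, adding these up, and scaling the libraries of a fraction by median ratios. In whole cells OGT had values of 12.6 and 15.02 with EGFP siRNA, against 23.2 and 24.9 with CHERP siRNA. Every CHERP siRNA library was above both EGFP siRNA libraries, and OGT rose by 0.80 on the log2(value + 0.01) scale, or 1.75 times (standard error 0.12, adjusted p = 0.00071 by limma over 9660 genes). A rise or a fall passed for 36.7% of the genes tested in whole cells. Without the events that span the retained intron, OGT still rose by 0.74 (adjusted p = 0.0010), and the log2 change stayed between 0.67 and 0.93 with each library left out.

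In the cytoplasm OGT had values of 1.45 and 1.199 with EGFP siRNA compared with 0.918 and 0.954 with CHERP siRNA. Both CHERP siRNA libraries lay below the EGFP siRNA libraries, and OGT fell by 0.49 on the log2 scale (standard error 0.15, adjusted p = 0.0201 by limma over 7293 genes). In the cytoplasm 48.3% of the genes passed. Without the first EGFP siRNA library the log2 change was -0.36 and the adjusted p 0.154, and the other 3 left out in turn kept the call.

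The difference of these effects was tested with limma on the events found in both fractions. On these events the log2 effect of CHERP siRNA on OGT was 0.82 in whole cells and -0.49 in the cytoplasm, a difference of -1.32 (standard error 0.19). Its unadjusted p was 2.23e-05, the lowest of 6505 genes, but the adjusted p was 0.145, and 0% of the genes passed (286 had an unadjusted p under 0.05). The difference lay between -1.46 and -1.18 with each library left out, and it passed only without the second whole-cell EGFP siRNA library (adjusted p = 0.0045). The opposite directions were thus each past the threshold in their own fraction, while the test of their difference was not.

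MGEA5 showed less change in whole cells. It had values of 17.6 and 20.7 with EGFP siRNA, against 15.9 and 17.4 with CHERP siRNA, with a log2 change of -0.20 (standard error 0.12, adjusted p = 0.211 by limma). In the cytoplasm it had values of 1.31 and 1.51 with EGFP siRNA compared with 1.04 and 0.864 with CHERP siRNA. There MGEA5 fell by 0.56 on the log2 scale, a factor of 1.48 (standard error 0.16, adjusted p = 0.0111 by limma). The cytoplasmic call was lost without the second EGFP siRNA library (log2 change -0.46, adjusted p = 0.0685) or the second CHERP siRNA library (-0.42, adjusted p = 0.0588), and the whole-cell change passed without the first EGFP siRNA library (-0.33, adjusted p = 0.0076). The effects in the cytoplasm and in whole cells differed by -0.25 on the log2 scale on shared events (adjusted p = 0.998). RNA for the enzyme that adds O-GlcNAc and RNA for the enzyme that removes it were thus both lower in the cytoplasm. Of the pair, OGT rose in whole cells. Abundance is scaled by median ratios within a fraction, so these changes are relative to other genes and give no amounts of RNA. A fall passed for 22.5% of all genes tested in the cytoplasm.

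**Figure D3:**
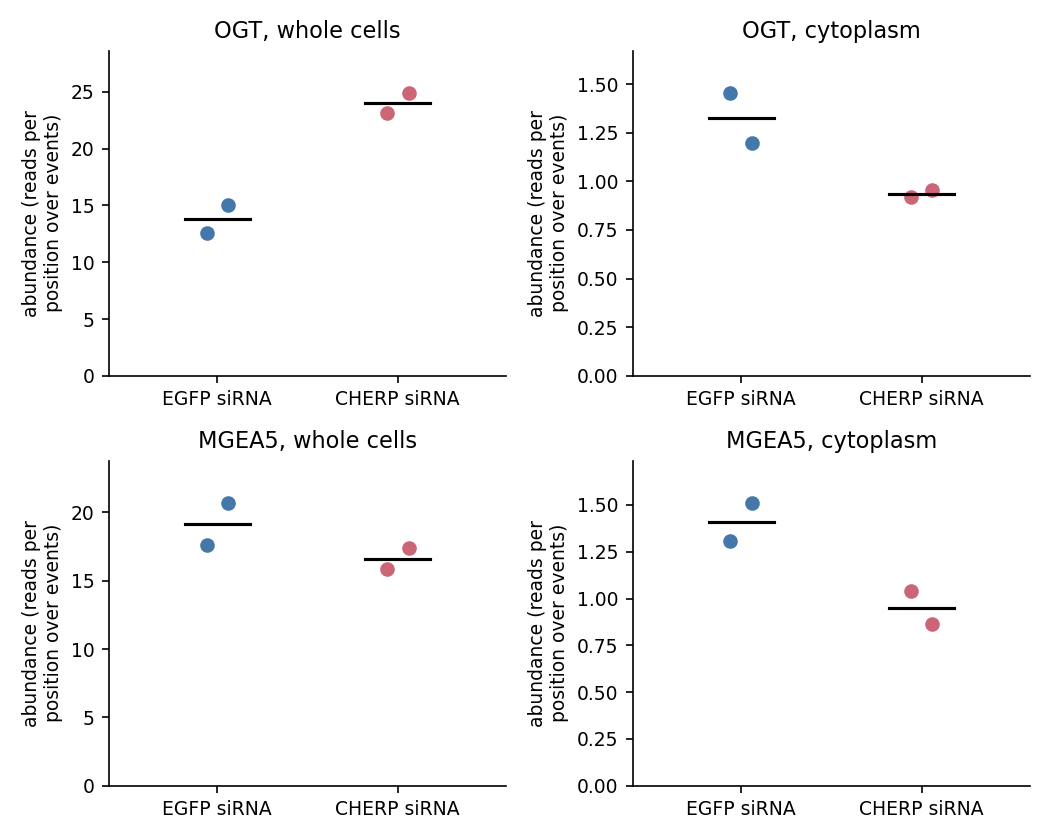
Abundance of OGT (top) and MGEA5 (bottom) in whole cells (left) and the cytoplasm (right), as reads per position summed over splicing events and scaled by median ratios, on linear axes from 0. Points are libraries and bars are means of 2. OGT rose from 12.6 and 15.02 to 23.2 and 24.9 in whole cells and fell from 1.45 and 1.199 to 0.918 and 0.954 in the cytoplasm, where MGEA5 fell from 1.31 and 1.51 to 1.04 and 0.864.

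In the authors' table of cytoplasmic expression, MGEA5 had means of 1438 and 1934 normalized counts in the first and the second condition. The headers of these columns do not name the siRNA. CHERP, the depleted gene, had means of 209 and 1685 in the same columns. By these values the first condition would be the CHERP siRNA, although EGFP comes first in the name of this comparison. MGEA5 was then lower with CHERP siRNA, as in the event reads. Both measures come from the same cytoplasmic libraries and are not independent. OGT had no row among the 6757 genes of that table. That number is close to the paper's total of cytoplasmic transcripts raised or lowered at FDR under 0.05. Whether OGT is absent because it did not pass the authors' test was not tested.

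Along the OGT gene the rise in whole cells was not limited to the intron. Over the inclusion forms of 12 regions with a mean of at least 20 reads, of which 10 are exons of the reference transcript and the others overlap exons 2, 4 and 5, the log2 ratio of scaled read density, CHERP over EGFP siRNA, was above 0 for 12, with a median of 0.75. These ratios have no test of their own, and neighbouring events share reads. The lowest, 0.35, belonged to the skipped exon 7 and the highest, 1.34, to the exon that spans intron 4. Exon 17 (70782980 to 70783096), far downstream of both events, held 204 and 250 scaled reads per 100 positions with EGFP siRNA, against 393 and 407 with CHERP siRNA. In the cytoplasm the ratio was below 0 for 5 of 5 regions, the one that spans intron 4 included, from -0.77 to -0.27, and exon 17 held 27.4 and 30.5 scaled reads per 100 positions with EGFP siRNA compared with 22.9 and 20.5 with CHERP siRNA.

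Along MGEA5 the whole-cell ratio was uneven. It was below 0 for 9 of 12 regions, 11 of them exons of the reference transcript, from -0.59 at exon 8 (103559999 to 103560157) upwards. Exon 8 held 175 and 208 scaled reads per 100 positions with EGFP siRNA, against 127 and 128 with CHERP siRNA. Exon 15 (103547121 to 103547280), near the 3′ end, held 191 and 235 against 203 and 216, with a log2 ratio of -0.03. Exons 2, 4 to 8 and 10 were lower in both CHERP siRNA libraries than in either EGFP siRNA library, while exons 11, 13, 14 and 15 overlapped between the groups. How often exons of other genes separate so with 2 libraries per group was not counted. The difference between these exons was not tested, and exons of a gene share its level in each library. In the cytoplasm 3 of 3 exons were below 0, between -0.63 and -0.47.

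**Figure D4:**
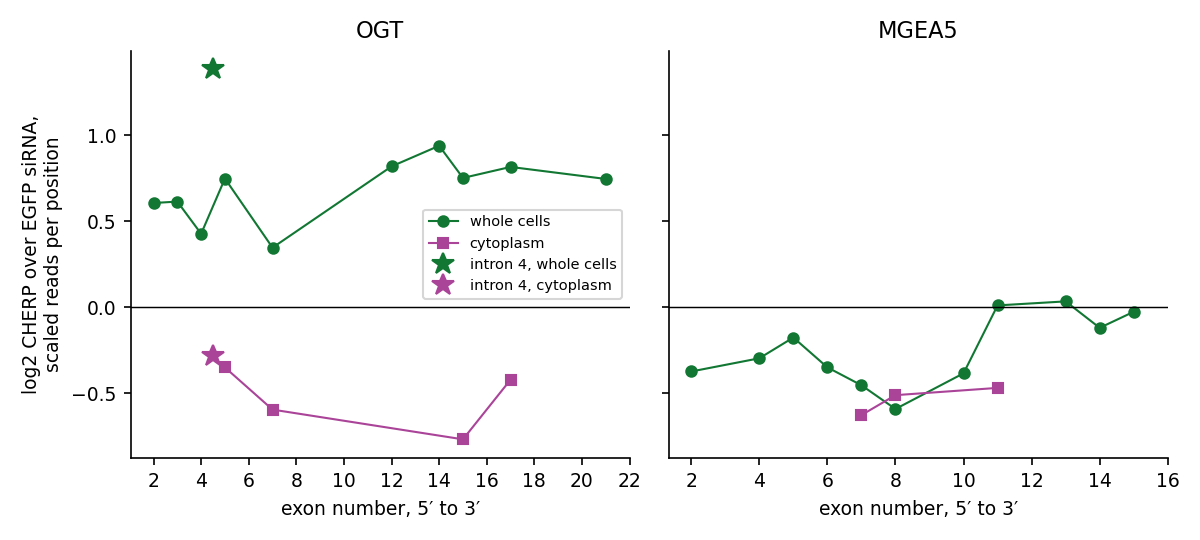
Log2 ratio of scaled reads per position on the inclusion form, CHERP over EGFP siRNA, by exon number from the 5′ to the 3′ end, for OGT (left) and MGEA5 (right), in exons of the reference transcripts with a mean of at least 20 reads. Circles are whole cells, squares the cytoplasm, and stars OGT intron 4. The OGT exons lay above 0 in whole cells and below 0 in the cytoplasm, and the intron in whole cells lay above all of them.

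In the pathway that supplies UDP-GlcNAc, genes moved in both directions. Of 12 genes, 11 were tested in whole cells, and 3 rose, 2 fell and 6 did not pass, whereas among all genes 19% rose and 17.7% fell. The median log2 change of these genes was -0.02, as against 0.02 over all genes tested. GFPT2, which catalyzes the entry step, had values of 2.01 ± 0.191 with EGFP siRNA and 6.46 ± 0.0894 with CHERP siRNA (SD, n = 2), a rise of 1.68 on the log2 scale (standard error 0.14, adjusted p = 2.70e-05 by limma). GNPNAT1, the acetyltransferase, rose by 1.496 (standard error 0.12, adjusted p = 2.77e-05 by limma), from 4.39 ± 0.168 to 12.4 ± 1.203. UAP1, the last enzyme of the route, rose by 1.41 (standard error 0.13, adjusted p = 5.09e-05 by limma), from 14.7 ± 2.51 to 38.9 ± 2.17. GNPDA1, which turns glucosamine 6-phosphate back into fructose 6-phosphate, was lower, with values of 10.3 ± 1.56 against 3.11 ± 0.235 and a log2 change of -1.72 (standard error 0.14, adjusted p = 2.89e-05 by limma). The other gene that passed with a fall in whole cells was PGM3, whose call was lost without either CHERP siRNA library (adjusted p = 0.317 and 0.0901 by limma). In the cytoplasm 3 of 11 tested genes rose and 3 fell, where 25.8% and 22.5% of all genes did. GFPT2, GNPNAT1 and UAP1 rose there too, by 1.67, 1.58 and 1.28 on the log2 scale, and GNPDA1, PGM3 and NAGK fell, GNPDA1 with a log2 change of -1.93. The cytoplasmic PGM3 call (adjusted p = 0.0446 by limma) was lost with any library left out, with SE events only (0.115) and with no filter on low values (0.0527). Unlike OGT, these genes had the same direction in the cytoplasm as in whole cells, and the cytoplasmic effects on GFPT2, GNPNAT1, UAP1 and GNPDA1 differed from the whole-cell ones by -0.06, 0.09, -0.0018 and -0.15 on the log2 scale (adjusted p = 0.998 for each on shared events).

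**Figure D5:**
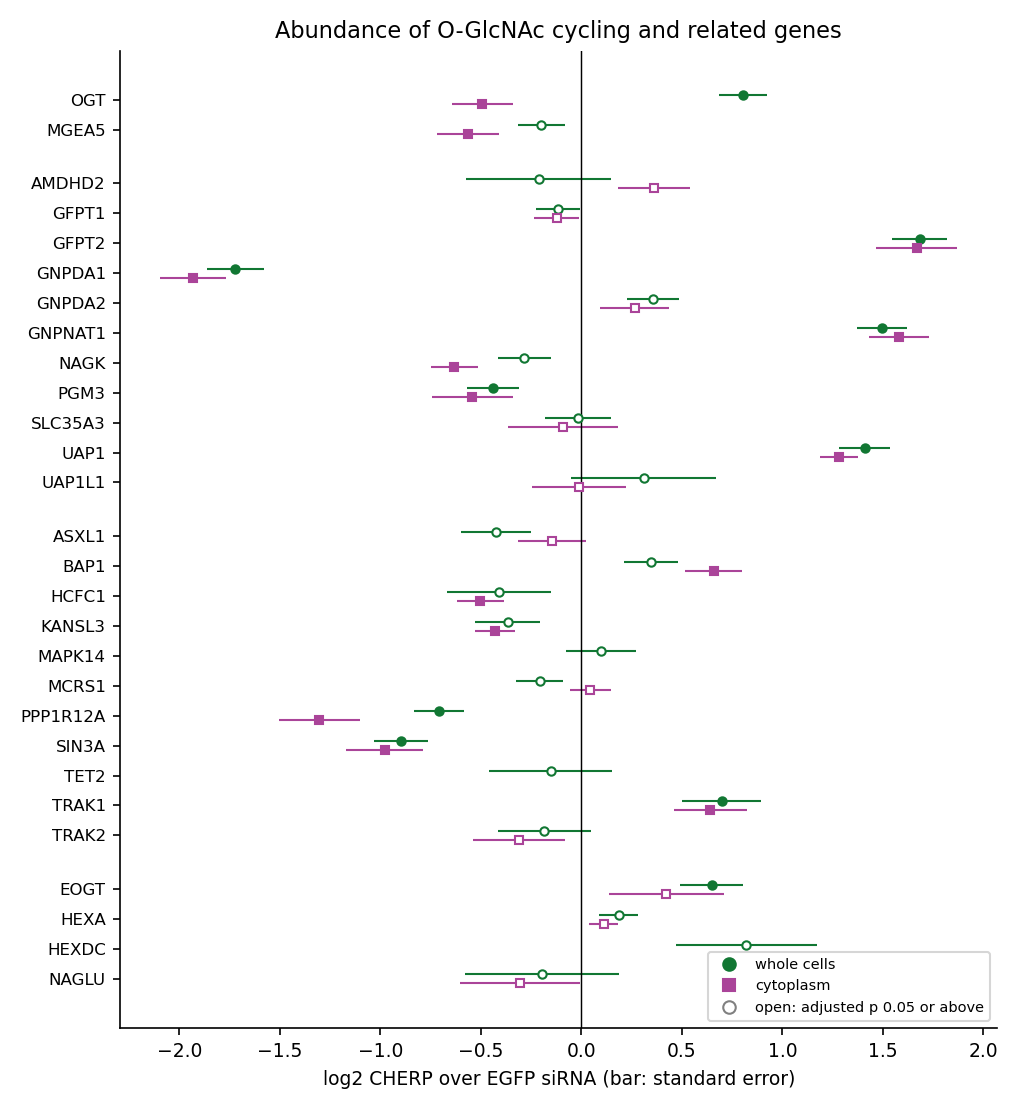
Log2 change in abundance, CHERP over EGFP siRNA, of OGT, MGEA5 and the tested genes of the UDP-GlcNAc supply, the OGT partners and the other GlcNAc enzymes, from top to bottom. Circles are whole cells and squares the cytoplasm, bars are standard errors, and filled symbols have an adjusted p under 0.05 in limma. OGT lies at 0.80 in whole cells and at -0.49 in the cytoplasm, whereas GFPT2, GNPNAT1 and UAP1 lie above 1 in both and GNPDA1 below -1 in both.

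In the supply pathway, exons of UAP1 and GFPT2 passed the splicing test in whole cells. Of 119 whole-cell events of these genes, 3 passed, 2 of them at the same UAP1 exon, against 0.985% of all whole-cell events, and 0 of 63 cytoplasmic events did by the quasi-binomial test. Over all genes, 0.209% of the cytoplasmic events passed. In UAP1, the exon of 51 bases from 162562522 to 162562572, whose inclusion separates the known enzyme forms AGX1 and AGX2, had a level of 0.549 and 0.611 with EGFP siRNA compared with 0.380 and 0.378 with CHERP siRNA (adjusted p = 4.52e-07 by the quasi-binomial test). An event at the same exon with a start 3 bases downstream fell as well, from 0.467 to 0.249. In GFPT2, an exon of 62 bases from 179755277 to 179755338 had a level of 0.794 and 0.825 with EGFP siRNA, against 0.553 and 0.606 with CHERP siRNA (adjusted p = 0.0044 by the quasi-binomial test). The groups did not overlap at either exon. These calls were lost with limma on the log2 odds (adjusted p between 0.670 and 0.736) and with the floor set after the moderation (0.338 to 0.477). Under that floor 0 whole-cell SE events of any gene passed. Leaving out any library ended them too, except that the exon of 51 bases held without the first EGFP siRNA library.

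Proteins that work with OGT were the next list. It holds HCFC1, which OGT cleaves and modifies, the TET dioxygenases, the corepressor SIN3A, the adaptor proteins TRAK1 and TRAK2, the myosin phosphatase subunit PPP1R12A, BAP1 and others. Of 13 genes, 11 were tested in whole cells, and 1 rose, 2 fell and 8 did not pass, against 19% and 17.7% of all genes, with a median log2 change of -0.21 against 0.02. SIN3A fell by 0.90 (standard error 0.13, adjusted p = 0.00081 by limma), from 4.15 ± 0.0359 to 2.22 ± 0.0777 (SD, n = 2). PPP1R12A fell by 0.71 (standard error 0.12, adjusted p = 0.0019 by limma), from 7.70 ± 0.724 to 4.69 ± 0.112. TRAK1 rose, a call lost without either CHERP siRNA library (adjusted p = 0.155 for each by limma). In the cytoplasm 9 were tested, and 2 rose, TRAK1 and BAP1, and 4 fell, HCFC1, KANSL3, PPP1R12A and SIN3A, against 25.8% and 22.5% of all genes, with a median of -0.31 against 0.01. The BAP1 call was lost with SE events only (adjusted p = 0.0645 by limma). PPP1R12A also had 2 whole-cell exon events that passed, of 99 events in this list and against 0.985% of all whole-cell events, and its exon of 168 bases from 80199946 to 80200113 had a level of 0.889 and 0.970 with EGFP siRNA compared with 0.627 and 0.485 with CHERP siRNA (adjusted p = 0.00070 by the quasi-binomial test). The exon of 132 bases at the same start shares its reads. Both calls were lost with any library left out, with limma on the log2 odds (adjusted p = 0.430 and 0.423) and with the floor set after the moderation (0.546 for each). Under that floor 0 whole-cell SE events of any gene passed.

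Among the other enzymes that handle GlcNAc, EOGT, which adds the sugar to extracellular domains in the endoplasmic reticulum, was the single gene of 4 that passed in whole cells, with a rise, where 36.7% of all genes passed. The call was lost without either CHERP siRNA library (adjusted p = 0.134 and 0.0553 by limma). HEXA, HEXDC and NAGLU did not pass. In the cytoplasm 3 of these genes were tested by limma and 0 passed (0 at an unadjusted p under 0.05), and 0 of their 21 splicing events passed the quasi-binomial test. There 48.3% of all genes and 0.209% of all splicing events passed.

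The genes whose abundance pattern was nearest to that of OGT were found by the root mean square distance of the 8 log2 values, each centred on the mean of its fraction, among 7058 other genes. FAM175B (distance 0.092), STAT5B (0.133) and VPS13A (0.155) came first. FAM175B had log2 changes of 0.76 in whole cells and -0.41 in the cytoplasm, and STAT5B 0.63 and -0.48. For MGEA5 the nearest were RNMT (0.035), MED14 (0.047) and VPS11 (0.049), with log2 changes between -0.24 and -0.16 in whole cells and between -0.49 and -0.48 in the cytoplasm. The rule that chose these genes uses the same values, so that they are descriptions without a test.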

How the data were processed

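RNA-seq of whole-cell and cytoplasmic RNA, 2 libraries per siRNA and fraction, was analysed from the deposited tables. Per the labels and the methods, the authors mapped reads to hg19 with STAR 2.5.2b, counted events with rMATS (version not given in the sources used here) and estimated expression with RSEM 1.2.25 and GENCODE 19. The 10 deposited rMATS tables give, for each event, the raw reads of inclusion and of skipping for each siRNA, with the libraries of a group joined in a cell and no normalization, and the effective lengths. The deposited expression table gives a signal per condition, the authors' mean of normalized counts, for selected genes. The authors' p-values, FDR, differences, fold ratios and posterior probabilities were not used, nor were 20 columns of inclusion levels.

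Libraries in a cell carry no replicate number and were used in the order of the cell. Every event was tested with a quasi-binomial model, with the Pearson dispersion floored at 1 and moderated over the events of a type by squeezeVar of limma 3.58.1 (R 4.3.3). The prior degrees of freedom were infinite, so that the spread of a single event had no weight. Benjamini-Hochberg adjustment was within event type, with a threshold of 0.05. For abundance, limma was run on log2(value + 0.01), leaving out genes whose mean was under 20 reads. Models were tested on simulated data. Sequences came from GRCh37 with pysam 0.24.0, and exon numbers from GENCODE 44 lifted to GRCh37. Tables were handled with Python 3.11.15, numpy 2.4.6 and pandas 2.3.3.

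Full values were given for RI events, events that passed, the OGT exon of the RT-PCR panel (taken as exon 7, which also passed; its primers were not matched here), CHERP, the 6 list genes with the largest whole-cell change among those that passed, and the 3 nearest genes in pattern. Members and lists were chosen with earlier results of these data known. Alternatives covered dispersion, test, read minimum, pseudocount, scaling, event types and each library left out. The floor after the moderation, the abundance without events that span a retained intron the comparison of abundance effects between fractions and the alternatives for list genes that passed were added after seeing the data. In the list of other GlcNAc enzymes, 2 genes are not reported here.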

Additional observations from a re-analysis of the deposited data

Results flagged for a closer look

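The effect of CHERP siRNA on OGT abundance differed in direction between the fractions, since every whole-cell CHERP siRNA library lay above and every cytoplasmic CHERP siRNA library below the EGFP siRNA libraries. The effect in the cytoplasm minus that in whole cells was -1.32 on the log2 scale (unadjusted p = 2.23e-05, adjusted p = 0.145 by limma over 6505 genes). How many genes have such non-overlapping groups in both fractions was not counted. FAM175B, STAT5B and VPS13A, chosen above for a like pattern, also moved in opposite directions. The cause of the OGT difference was not tested.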

How the results depend on the processing

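With limma on the log2 odds, and with the floor on the dispersion set after the moderation, 0 in place of 2 member events passed in whole cells. Between the siRNAs, that floor let 0 SE and 0 RI events of any gene pass in either fraction. It therefore cannot tell member events from others. With each library left out, 0 to 1 passed. In the cytoplasm and in the interaction, 0 passed under every alternative run. For cytoplasm against whole cells, the EGFP siRNA count of 1 became 3 with limma and 0 to 1 with each library left out, and the CHERP siRNA count of 0 became 7 with limma, 1 with at least 10 reads in each fraction, 1 with the floor after the moderation and 0 to 1 with each library left out. The log2 odds ratio of the interaction at intron 4, -0.39, became 0.045 without the first whole-cell EGFP siRNA library and 0.0087 without the second cytoplasmic EGFP siRNA library.

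With each library left out, the log2 change of OGT lay between 0.67 and 0.93 in whole cells and between -0.63 and -0.36 in the cytoplasm, and that of MGEA5 between -0.33 and -0.08 and between -0.69 and -0.42 (cytoplasmic MGEA5 -0.46 without the second EGFP siRNA library). The other alternatives run on abundance (pseudocount, scaling, read minimum, event types) changed no call on OGT or MGEA5. Under the other scalings the median log2 change of all genes was between -0.09 and -0.01.

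No paired analysis was possible because the columns join the libraries of a group in a cell and carry no replicate numbers. In the cytoplasm, 5 to 17 junction reads at intron 4 and 0 to 3 skipping reads at exon 7 limit what can be detected. Which cause underlies the lost calls was not tested.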
